A study of Mus musculus with 12 samples.

Results

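Igf1, Pdgfa, Pdgfb, Pdgfc, Vegfa, Vegfb, Tgfb1, Hbegf, Thbs1 and Fn1 encode secreted growth factors and matrix proteins that act on pulmonary vessels. They were chosen by symbol and are 10 of the 26608 gene rows counted in 12 mouse RNA-seq libraries of sorted lung cells. All animals were C57Bl/6 mice kept for 3 weeks in hypoxia with weekly SU5416, an inhibitor of VEGF receptors that is combined with hypoxia to model pulmonary hypertension. The sorted cells, about 250 a library, were interstitial macrophages (IM), which reside in the lung tissue around vessels and airways, or nonclassical monocytes (NCM), a blood monocyte type that crawls along endothelium. The deleted groups came from Cx3cr1cre;Hif1α Δ/Δ animals and the control groups from Cre-negative animals with floxed Hif1a, so that Cre was present in the deleted groups alone. IM deleted comprised libraries IM649, IM650 and IM661, and IM control comprised IM648, IM659 and IM660. NCM deleted comprised RM649, RM650 and RM661, and NCM control comprised RM648, RM657 and RM659, where RM is the prefix the labels use. Cx3cr1 drives Cre in monocytes and many macrophages and not in these sorted populations alone, and no group was kept at normal oxygen or without SU5416. The labels do not say that a number stands for an animal, so p-values measure the spread between these libraries, which may be technical.

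The PDGF ligands and IGF1 bind receptor tyrosine kinases on smooth muscle cells and fibroblasts and are known for driving growth of the muscular layer of pulmonary arteries. VEGFA acts on endothelial cells, TGF-beta 1 is secreted in a latent complex that has to be activated, and thrombospondin 1 and fibronectin are matrix proteins that take part in that activation or store growth factors in the matrix. Hif1a encodes the oxygen-regulated subunit of HIF-1, which binds a short core in hypoxia-responsive promoters and enhancers, with Vegfa as the textbook target. Macrophages near remodelled pulmonary vessels are a known source of several of these factors.

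RefSeq promoter windows of GRCm38.p6 run from 250 bases before to 50 bases after a start site. Hbegf was left out of the search, and windows were read for 6 of the 10 genes (Igf1, Pdgfa, Pdgfc, Vegfa, Vegfb and Tgfb1). Those of Tgfb1, Igf1 and Vegfa are shown because the results on the deletion and on the cell types turn on the first pair and because Vegfa is the known HIF-1 target. They are written 5′ to 3′ on the strand of the gene, and capitals mark the HIF-1 core ACGTG or GCGTG on either strand, with no overlap with another motif searched. The Tgfb1 window lies at chr7:25686752-25687051 on the plus strand, the Igf1 window at chr10:87860861-87861160 on the plus strand, and the Vegfa windows at chr17:46025114-46025413 (start site A) and chr17:46032328-46032627 (start site B) on the minus strand.
Tgfb1: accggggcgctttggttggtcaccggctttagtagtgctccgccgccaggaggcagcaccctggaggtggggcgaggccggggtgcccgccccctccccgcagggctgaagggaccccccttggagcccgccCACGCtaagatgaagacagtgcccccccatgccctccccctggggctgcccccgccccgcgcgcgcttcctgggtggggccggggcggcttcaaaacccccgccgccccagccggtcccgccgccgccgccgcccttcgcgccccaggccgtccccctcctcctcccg
Igf1: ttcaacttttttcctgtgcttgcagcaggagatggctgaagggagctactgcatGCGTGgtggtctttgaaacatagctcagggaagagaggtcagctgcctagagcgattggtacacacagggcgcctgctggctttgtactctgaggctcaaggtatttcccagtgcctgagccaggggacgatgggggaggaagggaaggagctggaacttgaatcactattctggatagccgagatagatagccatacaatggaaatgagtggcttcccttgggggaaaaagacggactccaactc
Vegfa start site A: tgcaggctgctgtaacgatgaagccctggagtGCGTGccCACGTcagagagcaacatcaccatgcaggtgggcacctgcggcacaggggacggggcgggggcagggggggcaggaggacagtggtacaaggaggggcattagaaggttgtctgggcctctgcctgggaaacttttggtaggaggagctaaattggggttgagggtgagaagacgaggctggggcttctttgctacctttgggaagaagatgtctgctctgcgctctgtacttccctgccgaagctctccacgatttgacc
Vegfa start site B: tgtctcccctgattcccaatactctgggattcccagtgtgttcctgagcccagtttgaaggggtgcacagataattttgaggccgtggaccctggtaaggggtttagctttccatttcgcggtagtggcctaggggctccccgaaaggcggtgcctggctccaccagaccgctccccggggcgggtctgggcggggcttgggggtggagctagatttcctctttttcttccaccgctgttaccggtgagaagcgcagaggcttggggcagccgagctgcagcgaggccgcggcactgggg
The core began 118 bases upstream of the Tgfb1 start and 196 bases upstream of the Igf1 start. Vegfa start site A had a pair of cores, 218 and 211 bases upstream, and start site B had none. Start site A lies inside the gene (chr17:46016993-46032369, minus strand), whereas start site B lies at its 5′ end. The pair of cores is therefore not at the 5′ end of Vegfa. The Igf1 window also lies inside its gene (chr10:87858265-87937042, plus strand), so its core is not at the 5′ end of Igf1. The Tgfb1 window lies at the 5′ end of its gene (chr7:25687002-25705077, plus strand). Of the windows not shown, 1 of Pdgfa held the core 231 bases upstream and that of Vegfb held it 237 and 81 bases upstream. The Pdgfa windows lie inside the gene (chr5:138976014-138997370, minus strand), and the Vegfb window lies at the 5′ end of its gene. In all, 5 of the 8 windows of these genes held the core, against 43.8% of the 32851 windows in the table, so a match in such a window is common.

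Depth was 5332600 to 14099509 gene counts a library, and 14254 genes entered the test, the 10 growth factor genes among them. It was 7039631 to 9054232 in IM deleted and 13333039 to 14099509 in IM control libraries. In NCM it was 5332600 to 11169706 in deleted and 7238612 to 8583265 in control libraries. IM control thus lay above all other libraries in depth, and the part of depth in the results was not tested. Levels are CPM (counts scaled to a common library size, here with TMM factors), a fold change comes from an edgeR quasi-likelihood fit to all 12 libraries, and a gene passed when its p, adjusted over all genes tested, was under 0.05. The targeted gene, Hif1a, averaged 199 ± 6.50 CPM in IM deleted and 228 ± 15.6 CPM in IM control, and 172 ± 34.8 CPM in NCM deleted and 225 ± 19.6 CPM in NCM control (SD, n = 3 each; edgeR adjusted p = 0.938 and 0.407). Counts over the whole gene do not measure the removal of floxed exons, so the genotype labels are not checked by them. Cx3cr1, the gene whose promoter drives Cre, averaged 199 ± 85.4 CPM in IM deleted and 392 ± 66.2 CPM in IM control, and 123 ± 75.7 CPM in NCM deleted and 219 ± 72.7 CPM in NCM control (SD, n = 3 each; edgeR adjusted p = 0.448 and 0.356).

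Markers of the sorted types separated the cells as labelled, but other features moved with genotype. The summed level of 18 interstitial macrophage markers was 13839 to 16425 CPM in IM deleted and 21051 to 22426 CPM in IM control libraries, against 1664 to 2010 CPM in NCM deleted and 2361 to 4397 CPM in NCM control libraries. The sum of 17 nonclassical monocyte markers was 5428 to 10421 CPM in NCM deleted and 11252 to 18282 CPM in NCM control libraries, and 2020 to 2809 CPM in the IM libraries. All 19 endothelial markers had counts in every library, and their sum was 5340 to 13023 CPM in NCM deleted and 1049 to 4179 CPM in NCM control libraries, with no overlap. In IM it was 1405 to 5088 CPM in deleted and 1285 to 4025 CPM in control libraries. The sum of 14 fibroblast and smooth muscle markers was 460 to 788 CPM in NCM deleted and 114 to 307 CPM in NCM control libraries. In IM that sum overlapped, at 196 to 522 CPM in deleted and 139 to 427 CPM in control libraries. The sum of 10 epithelial markers was 1751 to 2706 CPM in NCM deleted and 316 to 2123 CPM in NCM control libraries, with overlap. In IM it was 215 to 2157 CPM in deleted and 869 to 2235 CPM in control libraries. For the deletion in NCM, all 10 epithelial markers had log2 differences above 0 (median 0.90), and 0 passed. The sum of 8 alveolar macrophage markers was 693 to 1578 CPM in IM deleted and 1759 to 1950 CPM in IM control libraries. In NCM it was 254 to 424 CPM in deleted and 425 to 558 CPM in control libraries. The share of non-exonic reads was 59.2 to 69.8% in IM deleted and 38.5 to 44.2% in IM control libraries, against 55.1 to 72.7% in NCM deleted and 58.1 to 66.8% in NCM control libraries. IM control lay below all other libraries, so this share as a covariate is poorly separated from any contrast with IM control. In bulk libraries, fewer cells of a type and less RNA per cell cannot be told apart. The part of these features in the results on the growth factor genes was not tested.

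Tgfb1 was the growth factor gene that passed for the deletion, and Igf1 and Pdgfc were those that passed between the cell types. In NCM, 1 of 10 genes passed, Tgfb1, which was lower in the deleted libraries, beside 0.421% of all genes tested in either direction and 0.337% in the lower direction. Of all genes tested in NCM, 12 were higher and 48 lower in deleted libraries, and with RLE scaling, which moved the median log2 difference of all genes to 0.04, against -0.10 with TMM, 28 were higher and 31 lower. In IM deleted against IM control, 0 of 10 passed, beside 0.288% of all genes tested. An unadjusted edgeR p under 0.05 was reached by 0 of 10 in IM, beside 9.84% of all genes tested, and by 4 of 10 in NCM (Igf1, Tgfb1, Thbs1 and Fn1, all lower), beside 16.1%. DESeq2 called 0 of 10 in IM, beside 2.62% of all genes, and 1 of 10 in NCM, Tgfb1, beside 6.69%. Between cell types, IM deleted against NCM deleted gave 2 of 10 higher, beside 3.22% of genes tested higher and 4.57% in either direction. IM control against NCM control gave 2 of 10 higher, beside 2.81% higher and 7.48% in either direction. The difference between the IM and NCM deletion effects passed for 0 of 10 genes and for 0 of the 14254 genes tested (0%). For that difference 2 of the 10 had an unadjusted edgeR p under 0.05, Igf1 and Tgfb1, beside 8.92% of all genes, and DESeq2 called 0 of the 10, beside 62 genes overall (0.435%). The comparisons share groups, so their counts are not independent. IM libraries ran on lanes 5 and 7 and NCM libraries on lanes 6 and 8, so lane and cell type cannot be told apart.

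**Figure D1:**
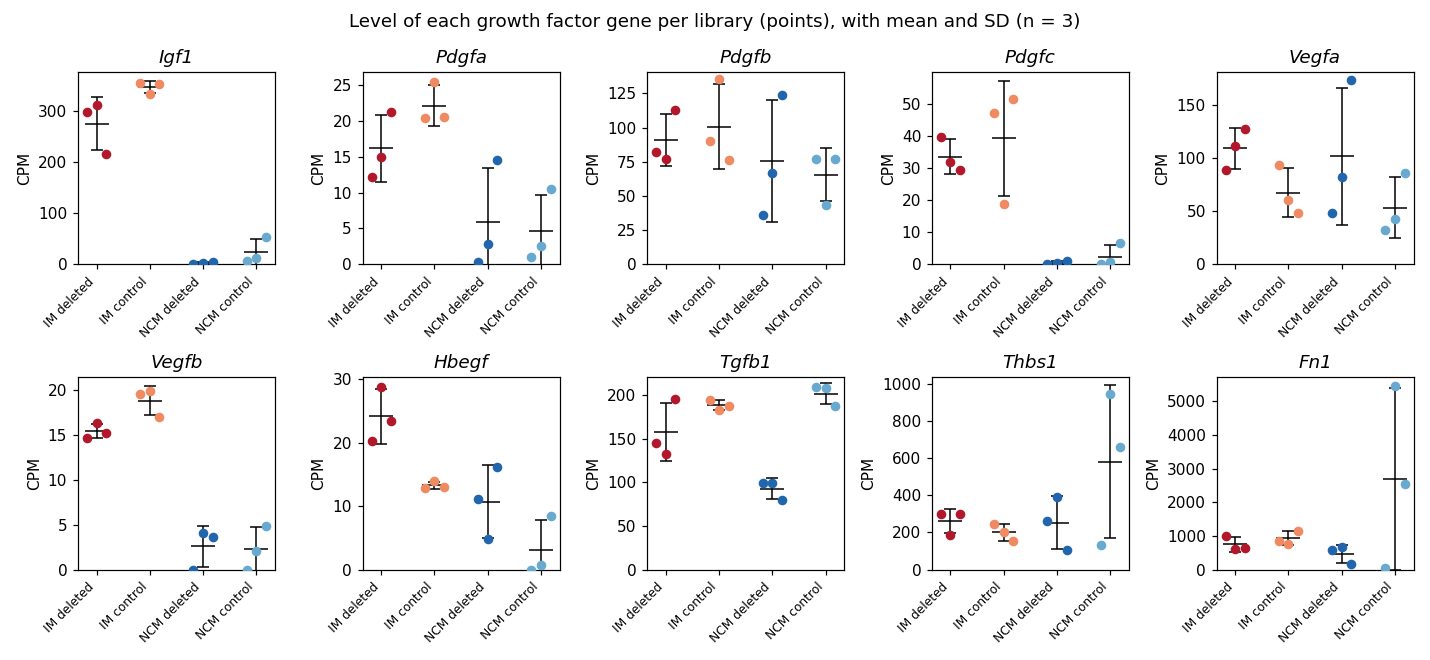
Level in CPM (linear vertical axes, each from 0) of each growth factor gene in the 12 libraries, as points by group, with horizontal bars for the mean and the SD of 3 libraries. Tgfb1 sits between 79.3 and 99.9 CPM in NCM deleted and between 188 and 209.5 CPM in NCM control, and Fn1 in NCM control spreads between 40.9 and 5446 CPM.

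Of the PDGF ligands, which act on mural cells through the PDGF receptors, Pdgfc was nearly confined to the IM libraries and Pdgfb overlapped between all 4 groups. Pdgfc (chr3:81036416-81214040, plus strand, GRCm38, as are all gene coordinates here) encodes a chain that is cleaved outside the cell before it binds PDGF receptor alpha. It had 39.6, 32.0 and 29.2 CPM in IM649, IM650 and IM661 (IM deleted) and 47.2, 18.7 and 51.7 CPM in IM648, IM659 and IM660 (IM control). In NCM it had 0, 0.441 and 0.976 CPM in RM649, RM650 and RM661 (NCM deleted) and 0, 0.612 and 6.55 CPM in RM648, RM657 and RM659 (NCM control). Each IM library was above each NCM library, and the NCM libraries held 14 counts in all in the deleted and 59 in the control group. A library with 0 counts allows up to 0.495 CPM in RM649 and 0.443 CPM in RM648, from a floor of 3 counts that covers counting error alone. The log2 difference was 6.00 in IM deleted against NCM deleted (95% interval 3.19 to 8.82, edgeR adjusted p = 0.0143) and 4.02 in IM control against NCM control (1.52 to 6.52, edgeR adjusted p = 0.0498). Without RM650 the deleted pair no longer passed (edgeR adjusted p = 0.0671). The control pair passed with 3 of 12 libraries left out in turn (RM659, RM649 or RM661), with edgeR adjusted p from 0.00679 to 0.156 over the 12, and did not pass with the compared groups alone (4.02, edgeR adjusted p = 0.0812) or with the non-exonic share as a covariate (2.16, edgeR adjusted p = 0.813).

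Pdgfc did not pass for the deletion, with a log2 difference of -0.22 in IM (edgeR adjusted p = 0.9995, interval -2.41 to 1.97) and -2.21 in NCM (edgeR adjusted p = 0.381, interval -4.73 to 0.31). In NCM the value turned to 0.65 without RM659, the library with the highest level. Pdgfb (chr15:79995874-80014977, minus strand) encodes the B chain, the ligand known for recruiting pericytes and stimulating arterial smooth muscle. It had 82.4, 77.2 and 112 CPM in IM deleted and 89.8, 135 and 76.4 CPM in IM control libraries. Its NCM levels were 36.1, 67 and 124 CPM in deleted and 76.7, 43.2 and 76.7 CPM in control libraries. The groups overlapped in all 4 comparisons. Its log2 differences were -0.15 for the deletion in IM (interval -1.01 to 0.71) and 0.21 in NCM (-0.65 to 1.07; edgeR adjusted p = 0.9995 and 0.848). In NCM the value was -0.34 without RM661 and -0.02 without RM657.

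Pdgfa (chr5:138976014-138997370, minus strand) encodes the A chain, which signals through PDGF receptor alpha. It had 12.2, 15 and 21.2 CPM in IM deleted and 20.4, 25.5 and 20.5 CPM in IM control libraries. In NCM it had 0.330, 2.79 and 14.5 CPM in deleted and 1.03, 2.57 and 10.4 CPM in control libraries. RM661 and RM659, the NCM libraries with the highest Pdgfa level of their groups, also had the highest endothelial sums of their groups, 13023 and 4179 CPM. The IM control libraries were all above the NCM control libraries, by 2.24 on the log2 scale (interval -0.07 to 4.54, edgeR adjusted p = 0.268), which did not pass. The deletion differences were -0.45 in IM (interval -2.65 to 1.74) and 0.34 in NCM (-1.89 to 2.56; edgeR adjusted p = 0.999 and 0.915), and the NCM value was -1.57 without RM661 and -0.13 without RM648.

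Vegfa (chr17:46016993-46032369, minus strand), which drives endothelial growth and permeability and is the known HIF-1 target of the set, did not pass in any comparison. It had 89.1, 112 and 127 CPM in IM649, IM650 and IM661 (IM deleted) and 93.3, 60.8 and 48.1 CPM in IM648, IM659 and IM660 (IM control). Its NCM levels were 48.3, 82.6 and 174 CPM in RM649, RM650 and RM661 (NCM deleted) and 32.0, 42.6 and 85.6 CPM in RM648, RM657 and RM659 (NCM control). The highest control library overlapped the deleted libraries in both cell types. The log2 difference for the deletion was 0.70 in IM (interval -0.27 to 1.66, edgeR adjusted p = 0.735) and 0.93 in NCM (-0.04 to 1.90, edgeR adjusted p = 0.332), and these effects differed by -0.23 (-1.59 to 1.13, edgeR adjusted p = 0.960). Both intervals include 0. In NCM the value was 0.29 without RM661, the library with the highest endothelial sum (edgeR adjusted p = 0.713). Within lanes the log2 ratio of mean CPM was 1.04 on lane 5 (1 deleted, 2 control) and 0.21 on lane 7 (2 deleted, 1 control) in IM, and 0.37 on lane 6 (1 deleted, 2 control) and 1.79 on lane 8 (2 deleted, 1 control) in NCM.

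Vegfb (chr19:6982473-6987651, minus strand), a ligand of VEGF receptor 1 better known for metabolic than for angiogenic effects, was at low levels. It had 14.7, 16.3 and 15.3 CPM in IM deleted and 19.6, 19.9 and 17 CPM in IM control libraries, which did not overlap. In NCM it had 0, 4.11 and 3.64 CPM in deleted and 0, 2.08 and 4.85 CPM in control libraries. Each IM library was above each NCM library, yet the differences of 2.56 in the deleted (edgeR adjusted p = 0.374) and 3.02 in the control pair (edgeR adjusted p = 0.212) did not pass. The deletion differences were -0.29 in IM and 0.16 in NCM (edgeR adjusted p = 0.9995 and 0.968), and the NCM value ranged between -0.41 and 1.29 with 1 library left out, below 0 without RM648, RM650 or RM661.

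Igf1 (chr10:87858265-87937042, plus strand), a growth and survival factor for smooth muscle that tissue macrophages are known to make, was an IM gene in these data. It had 299, 312 and 215 CPM in IM649, IM650 and IM661 (IM deleted) and 355, 334 and 353 CPM in IM648, IM659 and IM660 (IM control). Its NCM levels were 0, 3.38 and 4.88 CPM in RM649, RM650 and RM661 (NCM deleted) and 6.64, 12.7 and 54.2 CPM in RM648, RM657 and RM659 (NCM control). No IM library overlapped an NCM library. The Igf1 levels in NCM deleted rest on 0, 23 and 55 counts, so fold changes against that group rest on few reads. The log2 difference was 6.57 in IM deleted against NCM deleted (interval 4.60 to 8.55, edgeR adjusted p = 0.000771), a fitted 95-fold, and 3.82 in IM control against NCM control (2.12 to 5.52, edgeR adjusted p = 0.00881), a fitted 14.1-fold. The control difference did not pass without the filter on low counts (3.87, edgeR adjusted p = 0.0744) or with the non-exonic share as a covariate (2.34, edgeR adjusted p = 0.683).

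For the deletion, Igf1 lay lower in all deleted than in all control libraries of both cell types and did not pass in either. The log2 difference was -0.34 in IM (interval -1.85 to 1.18, edgeR adjusted p = 0.997) and -3.09 in NCM (-4.82 to -1.35, edgeR adjusted p = 0.0856). RM659, with 54.2 CPM, carried much of the NCM value, which was -1.75 without it (edgeR adjusted p = 0.241), and the ratio was -3.31 within lane 6 and -1.44 within lane 8. The sum of interstitial macrophage markers was 1664 to 2010 CPM in NCM deleted libraries, and in NCM control it was 4397 CPM in RM657, 4194 CPM in RM659 and 2361 CPM in RM648. The part of IM transcripts in this difference was not tested. The difference between the 2 deletion effects was 2.75 (interval 0.48 to 5.02, unadjusted p = 0.0209, edgeR adjusted p = 0.500).

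Hbegf, which encodes a membrane-anchored ligand of the EGF receptor that is shed by metalloproteinases, lay higher in all IM deleted than in all IM control libraries. It had 20.2, 28.8 and 23.4 CPM in IM deleted and 12.8, 13.9 and 13 CPM in IM control libraries. In NCM it had 11.1, 4.85 and 16.2 CPM in deleted and 0, 0.734 and 8.49 CPM in control libraries, with overlap. The log2 difference of 0.86 in IM (interval -1.43 to 3.15, edgeR adjusted p = 0.967) and that of 1.79 in NCM (-0.58 to 4.16, edgeR adjusted p = 0.462) did not pass. In NCM the value was 4.77 with the library of 8.49 CPM, RM659, left out (the highest over the 12 libraries left out in turn). Across the 10 genes, 3 had IM groups that did not overlap, Hbegf higher and Igf1 and Vegfb lower, beside 29.6% of all genes tested in either direction, 16.2% higher and 13.4% lower. In NCM 2 did not overlap, Igf1 and Tgfb1, both lower, beside 17.3% in either direction and 11.4% in the lower direction. Between cell types 5 of the 10 lay higher in all IM than in all NCM libraries of the deleted pair (Igf1, Pdgfc, Vegfb, Tgfb1 and Hbegf), beside 16% of genes tested, and 5 in the control pair (Igf1, Pdgfa, Pdgfc, Vegfb and Hbegf), beside 18.6%, and none lay lower.

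**Figure D2:**
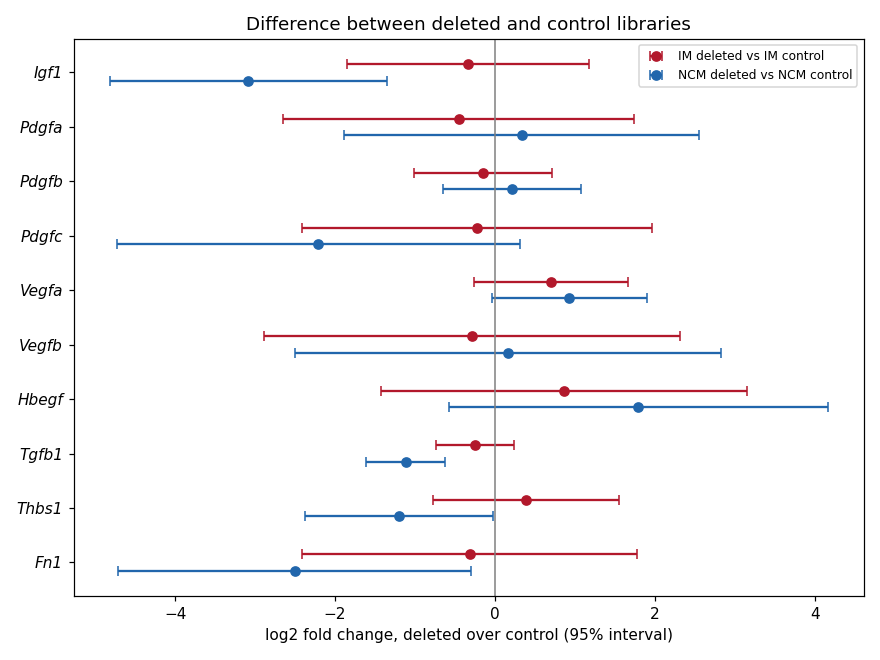
Fitted log2 fold change, deleted over control, of each growth factor gene (horizontal axis) with its 95% interval, for IM (red, upper of each pair) and NCM (blue, lower). Tgfb1 in NCM, at -1.12 (-1.61 to -0.63), is the gene of the set that passed, and the intervals of low genes such as Hbegf and Vegfb span several log2 units.

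Tgfb1 (chr7:25687002-25705077, plus strand), which encodes the TGF-beta isoform known for promoting matrix synthesis and smooth muscle differentiation, fell 2.17-fold in NCM deleted relative to NCM control. It had 99.8, 99.9 and 79.3 CPM in RM649, RM650 and RM661 (NCM deleted), against 209.5, 209 and 188 CPM in RM648, RM657 and RM659 (NCM control). The groups are tight and apart, with means of 93.0 ± 11.8 CPM in deleted and 202 ± 12.3 CPM in control libraries (SD, n = 3 each). The log2 difference was -1.12 (interval -1.61 to -0.63, edgeR adjusted p = 0.0493). In IM it had 146, 133 and 196 CPM in IM649, IM650 and IM661 (IM deleted), against 195, 183 and 188 CPM in IM648, IM659 and IM660 (IM control). IM661 lay with the control libraries, and the difference of -0.25 (interval -0.74 to 0.23, edgeR adjusted p = 0.889) did not pass. The 2 deletion effects differed by 0.86 (interval 0.17 to 1.55, unadjusted p = 0.0174, edgeR adjusted p = 0.486), so that a difference between the cell types did not pass over all genes.

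The size of the Tgfb1 difference in NCM was stable and its call was not. It ranged between -1.18 and -1.01 with each library left out in turn and was -0.99 within lane 6 and -1.23 within lane 8. The gene passed without RM650 or RM661 (edgeR adjusted p = 0.0389 and 0.0298) and did not pass with any of the 10 other libraries left out (0.0513 to 0.157). It did not pass with RLE scaling (-0.97, edgeR adjusted p = 0.0793), without the filter on low counts (-1.01, 0.0743) or with lane as a covariate (-1.11, 0.130). Nor did it pass with NCM libraries alone (-0.999, edgeR adjusted p = 0.322), a fit in which 0 of 12038 genes tested passed. It passed with DESeq2 (-0.97, DESeq2 adjusted p = 0.00338) and with the non-exonic share as a covariate (-1.14, edgeR adjusted p = 0.0264). The NCM deleted libraries also had the higher endothelial sums and the lower nonclassical monocyte sums given above, and the part of either in the Tgfb1 difference was not tested.

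Among 15 known TGF-beta target genes, all tested, 1 passed in NCM deleted against NCM control, lower, and 0 higher. It was Tgfbi, which encodes a matrix protein induced by TGF-beta. Tgfbi had 78.4, 145 and 78.1 CPM in RM649, RM650 and RM661 (NCM deleted), against 239, 385 and 466 CPM in RM648, RM657 and RM659 (NCM control). It fell 3.61-fold with no overlap (log2 difference -1.85, interval -2.51 to -1.20, edgeR adjusted p = 0.0261). The call was lost without IM648, IM659 or RM657 (edgeR adjusted p = 0.0538, 0.0755 and 0.0973) and with lane as a covariate (0.0874). It was also lost with NCM libraries alone (edgeR adjusted p = 0.277), where 0 of 12038 genes tested passed. The ratio was -1.55 within lane 6 and -1.61 within lane 8. Of the 15, 5 had values below 0, Tgfbi among them, and 10 above 0, and the list's median was 0.49, against -0.10 for all genes tested. All 19 endothelial markers were above 0 in the same comparison, with a median of 1.83. Tgfbi averaged 1865 CPM in IM control and 363 CPM in NCM control, and the interstitial macrophage sums given above were lower in NCM deleted libraries. The part of endothelial or IM transcripts in the values of Tgfbi and of the list was not tested. In IM, Tgfbi had 896, 800.4 and 1207 CPM in deleted, against 1877, 1647 and 2072 CPM in control libraries, again with no overlap. That difference of -0.95 did not pass (edgeR adjusted p = 0.225) except in a fit of the IM libraries alone (-0.94, edgeR adjusted p = 0.0142). In that fit 950 of 13566 genes tested passed.

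The matrix genes Fn1 and Thbs1 overlapped between the groups in NCM, and Fn1 ranged widely among the NCM control libraries. Fn1 (chr1:71585520-71653200, minus strand) encodes fibronectin, whose fibrils hold latent TGF-beta and bind integrins. It had 986, 599 and 648.3 CPM in IM649, IM650 and IM661 (IM deleted), against 853, 772 and 1160 CPM in IM648, IM659 and IM660 (IM control). Its NCM levels were 579, 667 and 169 CPM in RM649, RM650 and RM661 (NCM deleted), against 40.9, 5446 and 2549 CPM in RM648, RM657 and RM659 (NCM control). The NCM control libraries lie on both sides of the deleted ones, with a 133-fold range, and rest on 277, 44519 and 21018 counts, a spread far beyond counting error. The log2 difference was -2.51 in NCM (interval -4.71 to -0.30, edgeR adjusted p = 0.249) and -0.32 in IM (-2.41 to 1.77, edgeR adjusted p = 0.9995), and neither passed. Within lane 6 the NCM ratio was -2.58, and within lane 8, where RM648 is the control library, it was 3.19. The NCM value was 0.28 with lane as a covariate and -1.46 without RM657 (edgeR adjusted p = 0.514), and it passed without RM648 (-3.08, edgeR adjusted p = 0.0165). Fn1 overlaps exons of Apol7d on the opposite strand, which was at 0 in 11 libraries and at 0.160 CPM in IM660, and the strand setting of the counting is not given in the sources used here. Pdgfa, Pdgfc and Thbs1 also overlap exons of opposite-strand noncoding genes in the annotation, which were not analysed here, and without a known strand setting reads from those genes cannot be told apart from theirs.

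Fn1 is also known as a gene of classical monocytes and of some macrophages. Ly6c2, Ccr2 and Vcan, classical monocyte genes picked after their values were seen, were therefore read beside it. In RM657 and RM659, the libraries high in Fn1, Ccr2 had 142 and 70.7 CPM and Ly6c2 had 4.40 and 4.85 CPM. In RM648 these were 26.6 and 0 CPM. Vcan had 14.9 and 28.3 CPM in RM657 and RM659 and 8.56 CPM in RM648. In NCM deleted, RM650 had the highest Ccr2 (54.8 CPM), Vcan (72.7 CPM) and Fn1, whereas the highest Ly6c2 was in RM649 (30.5 CPM). Ccr2 was not confined to NCM, with 55.2 to 126 CPM in IM deleted and 118 to 188 CPM in IM control libraries. Ly6c2 was at most 1.24 CPM in IM, and Vcan was 3.25 to 20.3 CPM in IM deleted and 4.40 to 9.78 CPM in IM control libraries. RM657 and RM659 also had higher interstitial macrophage sums (4397 and 4194 CPM) than RM648 (2361 CPM). The part of classical monocyte or IM transcripts in the Fn1 spread was not tested.

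Thbs1 (chr2:118111876-118127133, plus strand) encodes thrombospondin 1, an activator of latent TGF-beta and an inhibitor of angiogenesis through CD36 and CD47. It had 300.1, 185 and 297 CPM in IM deleted, against 246, 199.6 and 154 CPM in IM control libraries. In NCM it had 262, 388 and 106 CPM in RM649, RM650 and RM661 (NCM deleted), against 134, 944 and 660.8 CPM in RM648, RM657 and RM659 (NCM control). As for Fn1, RM657 was the highest and RM648 the lowest of the NCM control libraries. The log2 difference was -1.20 in NCM (interval -2.38 to -0.02, edgeR adjusted p = 0.3004) and 0.38 in IM (-0.78 to 1.55, edgeR adjusted p = 0.976). Within lane 6 the NCM ratio was -1.05 and within lane 8 it was 0.46, and the fitted value was -0.66 without RM657. IM control was below NCM control by -1.54 (interval -2.73 to -0.35, edgeR adjusted p = 0.118), which passed without RM648 (-2.01, edgeR adjusted p = 0.0159). Thbs1 is also a platelet gene, and the sum of 9 platelet markers was 160 to 233 CPM in IM deleted and 203 to 305 CPM in IM control libraries, against 27.9 to 80.8 CPM in NCM deleted and 1.62 to 64.9 CPM in NCM control libraries. In IM most of that sum was Pf4, with means of 170 CPM in deleted and 224 CPM in control libraries. Ppbp averaged 6.08 and 13.4 CPM there, and Itga2b 4.36 and 2.73 CPM. Pf4 had 0.738 CPM in RM648, against 42.1 and 46.5 CPM in RM657 and RM659. The interstitial macrophage marker C1qa had 7.23 CPM in RM648, against 91.0 and 98.0 CPM in RM657 and RM659. Whether Pf4 comes from platelets or macrophages here, and its part in the Thbs1 spread, was not tested.

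**Figure D3:**
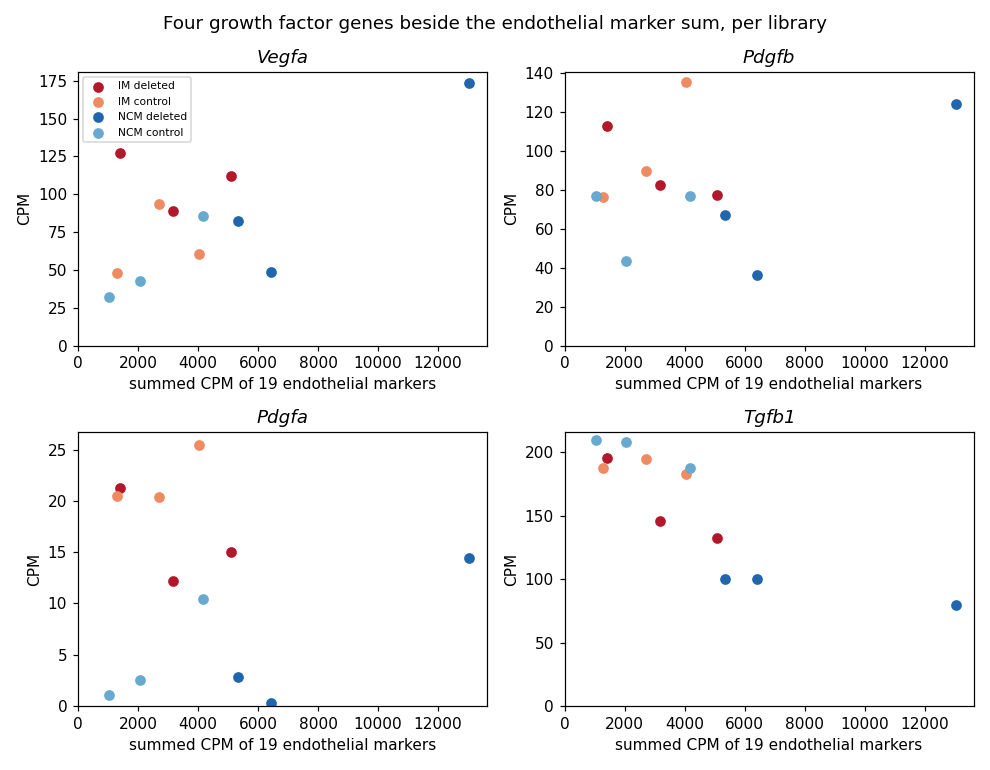
Level in CPM of Vegfa, Pdgfb, Pdgfa and Tgfb1 (vertical axes, from 0) against the summed CPM of 19 endothelial markers (horizontal axis), with a point for each of the 12 libraries by group. RM661, at 13023 CPM of endothelial markers, has the highest Vegfa (174 CPM) and the lowest Tgfb1 (79.3 CPM) of the 12 libraries.

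Per kilobase of exon, Fn1 had the highest mean level in 3 of the groups, and the order of the genes below it differed between groups. In IM deleted the mean levels were 63.7 CPM per kb for Fn1, 42.9 for Thbs1, 31.3 for Tgfb1, 27.8 for Igf1, 25.5 for Vegfa and 21.8 for Pdgfb. Below these came Vegfb at 9.62, Pdgfc at 6.60, Pdgfa at 5.17 and Hbegf at 4.99 CPM per kb. Neighbours in this order overlapped except Fn1 and Thbs1, Pdgfb and Vegfb, and Vegfb and Pdgfc. In IM control the order was Fn1 (79.4 CPM per kb), Tgfb1 (37.4), Igf1 (35.1), Thbs1 (32.9), Pdgfb (24.2), Vegfa (15.7), Vegfb (11.8), Pdgfc (7.70), Pdgfa (7.09) and Hbegf (2.75). Here Fn1 and Tgfb1, Tgfb1 and Igf1, Vegfb and Pdgfc, and Pdgfa and Hbegf did not overlap.

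In NCM deleted the means were 41.5 CPM per kb for Thbs1, 40.4 for Fn1, 23.7 for Vegfa, 18.5 for Tgfb1 and 18.2 for Pdgfb, all overlapping with the next. Below a gap came Hbegf (2.22 CPM per kb), Pdgfa (1.88), Vegfb (1.61), Igf1 (0.278) and Pdgfc (0.0928), again overlapping with the next. In NCM control they were 229 CPM per kb for Fn1, 95.4 for Thbs1, 40.1 for Tgfb1, 15.7 for Pdgfb and 12.5 for Vegfa. Igf1 (2.48 CPM per kb), Pdgfa (1.5), Vegfb (1.44), Hbegf (0.636) and Pdgfc (0.469) were lowest, and neighbours overlapped except Tgfb1 and Pdgfb, and Vegfa and Igf1. Fn1 alone made up 24.5 to 55.8% of the summed CPM of the 10 genes in NCM deleted libraries, against 8.16 to 81.2% in NCM control libraries. In IM this share was 38.5 to 49.6% in deleted and 43.8 to 55.7% in control libraries.

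**Figure D4:**
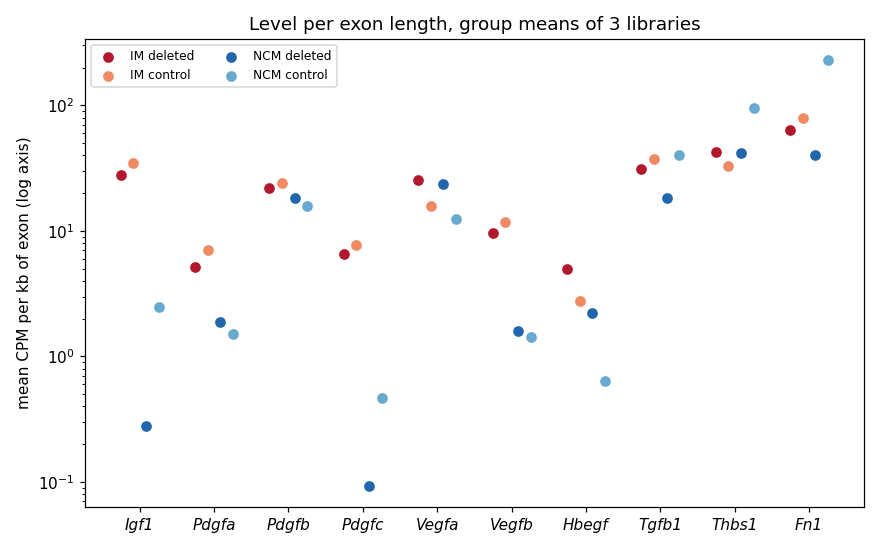
Mean level per kilobase of exon (vertical log axis, CPM per kb) of each growth factor gene in the 4 groups (points, means of 3 libraries). Igf1 and Pdgfc lie above 6 CPM per kb in both IM groups and below 3 CPM per kb in both NCM groups, and Pdgfb is between 15.7 and 24.2 CPM per kb in all 4.

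Of the genes around these factors, lists of 25 related ligands, 32 receptors, 26 binding and processing genes and the 15 TGF-beta targets were read in the same fit, with 20, 30, 24 and 15 of them tested. Eng and Kdr, 2 of the receptors, are also endothelial markers. For the deletion in IM none of the 89 tested passed (3.89-fold for Angpt2, the ligand with the smallest p, edgeR adjusted p = 0.374), 6 had an unadjusted edgeR p under 0.05, beside 9.84% of all genes, and DESeq2 called 0. In NCM 1 of 89 passed, Tgfbi, beside 0.421% of all genes, and 28 had an unadjusted edgeR p under 0.05, beside 16.1% of all genes. The list medians in NCM were 1.03 for ligands, 0.08 for receptors and 1.04 for binding and processing genes, against -0.10 for all genes tested. Those with the smallest p were Pdgfd (3.11, edgeR adjusted p = 0.124), Eng (1.79, 0.0739) and Sparc (2.01, 0.0502), and none passed. Pdgfd had 96.0, 10.6 and 46.8 CPM in NCM deleted, against 0.738, 6.97 and 9.95 CPM in NCM control libraries. Sparc had 181, 167 and 332 CPM in NCM deleted, against 37.0, 36.5 and 95.2 CPM in NCM control libraries. Eng, Sparc and Pdgfd are also known in endothelial or mural cells, and the part of the endothelial transcripts in these values was not tested. DESeq2 called 14 of the 89 in NCM, beside 6.69% of all genes.

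The same lists were read between the cell types. In IM control against NCM control 13 of 89 were higher and 4 lower, beside 2.81% and 4.67% of all genes tested, and in IM deleted against NCM deleted 11 were higher and 3 lower, beside 3.22% and 1.35%. Pgf, the placental growth factor that binds VEGF receptor 1, was nearly confined to IM, with 31.3, 28.2 and 102 CPM in IM deleted and 46.8, 56.8 and 36.9 CPM in IM control libraries. Its NCM levels were 0, 0 and 48 counts in deleted and 3, 1 and 0 counts in control libraries. The urokinase gene Plau (log2 difference 4.11 in the deleted and 4.24 in the control pair), the membrane metalloproteinase gene Mmp14 (2.36 and 3.71) and Furin (1.93 and 1.11), which encodes the protease that cleaves the TGF-beta 1 precursor, were higher in IM in both pairs. Among receptors, Nrp2, a VEGF coreceptor (2.38 and 2.02), Sdc4 (2.89 and 2.54) and Itgb5 (1.68 and 1.66) were higher in IM in both pairs.

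Receptors that were lower in IM in both pairs were Itga4, a fibronectin-binding integrin chain (-2.14 in the deleted and -3.35 in the control pair), Tgfbr3 (-1.78 and -2.49) and Cd36 (-1.49 and -1.39), which is also a nonclassical monocyte marker here. Tgfbr2, the ligand-binding TGF-beta receptor, was higher in IM in the control pair (1.17, edgeR adjusted p = 0.00812), where Igf2r was lower (-1.37, edgeR adjusted p = 0.0479). Igfbp4 (2.62, edgeR adjusted p = 0.00227) and Cd9 (1.35, edgeR adjusted p = 0.0224) were also higher in IM control than in NCM control. Of the TGF-beta targets, Tgfbi (3.27 and 2.36), Pmepa1 (2.27 and 3.11) and Ski (1.24 and 1.63) were higher in IM in both pairs, and Skil in the deleted pair (1.66, edgeR adjusted p = 0.0017). Tgfb1 itself had a log2 difference of 0.76 in IM deleted against NCM deleted (interval 0.27 to 1.25, edgeR adjusted p = 0.0767) and of -0.10 in IM control against NCM control (-0.59 to 0.39, edgeR adjusted p = 0.892). With the non-exonic share as a covariate, 0 of the 89 passed in the control pair, beside 28 of the 14254 genes tested. The share did not overlap between IM control and NCM control, so covariate and cell type are poorly separated in this fit.

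**Figure D5:**
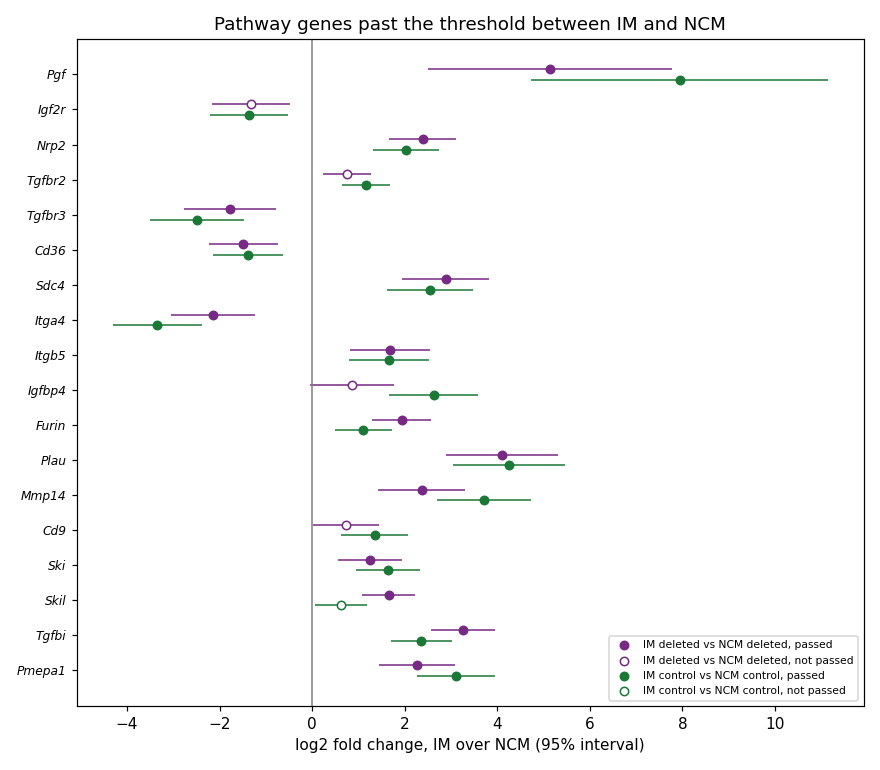
Fitted log2 fold change, IM over NCM (horizontal axis, with 95% interval), of the pathway genes that passed in at least 1 pair, for the deleted pair (purple, upper) and the control pair (green, lower), with filled points where the gene passed. Pgf, Plau and Mmp14 lie to the right (higher in IM) and Itga4, Tgfbr3, Cd36 and Igf2r to the left.

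Of 15 other known HIF target genes, all tested, 0 passed for the deletion in either cell type, while 3 in IM and 4 in NCM had an unadjusted edgeR p under 0.05, beside 9.84% and 16.1% of all genes. The smallest p in IM was that of Ldha, the lactate dehydrogenase A gene, with 64.5, 58.7 and 87.8 CPM in IM deleted, against 115, 158 and 139 CPM in IM control libraries (-0.97, edgeR adjusted p = 0.165). In NCM it was that of Pgk1, a glycolytic kinase gene, with 25.4, 45.3 and 40.7 CPM in NCM deleted, against 112, 77.4 and 79.8 CPM in NCM control libraries (-1.27, edgeR adjusted p = 0.0853). Ldha in IM and Pgk1 in NCM lay lower in all deleted than in all control libraries and did not pass with edgeR, while DESeq2 called Ldha in IM and Pgk1 in NCM and no other gene of the list. The median log2 difference of the 15 was -0.43 in IM and -0.32 in NCM, against 0.07 and -0.10 for all genes tested. The list was mixed, with 5 above 0 and 10 below 0 in IM, and 6 above 0 and 9 below 0 in NCM. Kdm3a of the list had 102, 103 and 117 CPM in IM deleted, against 60.7, 73.3 and 82.0 CPM in IM control libraries. In NCM, Kdm3a went the other way, with 72.1, 55.1 and 94.7 CPM in deleted, against 113, 106 and 130 CPM in control libraries. Vegfa in the same libraries had log2 differences of 0.70 in IM and 0.93 in NCM. Mxi1 was the HIF target that passed between cell types, lower in IM control than in NCM control (-1.20, edgeR adjusted p = 0.0324).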

How the data were processed

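Reads were processed on GRCm38 (mm10), and the submitters' processing notes name HTSeq 0.6.0, TopHat2 2.1.1 and cutadapt 1.12. The sources used here do not give the annotation, strand setting or tool options. The kit, per the labels, was a stranded pico-input kit for total RNA. The deposited files hold raw counts per gene, 1 file a library, which the authors had not normalized. HTSeq's summary rows, 45.0 to 74.1% of a library's reads, stayed out of library sizes and tests.

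R 4.3.3 with edgeR 4.0.16 (filterByExpr, minimum count 10; TMM; robust quasi-likelihood fit with 4 group means; Benjamini-Hochberg adjustment; threshold 0.05) gave 14254 genes, and Python 3.11.15 with matplotlib 3.10.9 the rest. The script was tested on simulated data. A gene of the TGF-beta target list is not reported here and is left out of its counts. DESeq2 1.42.0, RLE scaling, no filter, the compared groups alone, lane, non-exonic share, a replicate block and each library left out were the alternatives. Intervals are 95%. Gene coordinates and exon lengths come from the GENCODE annotation of GRCm38. CPM per kb uses the merged exon length.

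The 10 genes and all lists were chosen with earlier results of these data known. Text names the 10 genes, Hif1a and Cx3cr1, list genes past the threshold (up to 8 a list by smallest p), otherwise the gene of smallest p. For each of the 10 it names the 3 genes whose centred log2 CPM (prior count 2, mean log2 CPM at least 4) differed least by root mean square. Markers and any other gene were added as checks.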

Additional observations from a re-analysis of the deposited data

How the results depend on the processing

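The log2 differences of the 10 genes, Hif1a, Cx3cr1 and Tgfbi kept direction and side of the threshold in 1070 of 1169 values under other settings; 55 changed sign, 37 lost and 7 gained a call. Low counts limit Pdgfa, Pdgfc, Vegfb and Hbegf in NCM, and Igf1 in NCM deleted. The causes of the changes were not tested.

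For the NCM deletion, 0 of the 10 genes passed under RLE scaling, no filter, the compared groups alone and lane. Of the 89 pathway genes 1 passed, against 2 under RLE scaling, 4 with no filter, 14 with DESeq2, 0 with the compared groups alone, 0 with lane and 8 with the non-exonic share. Over all genes, 60 passed for the NCM deletion, against 59 under RLE scaling, 3 with lane and 351 with the non-exonic share. With no filter 153 of 19367 passed, and with the compared groups alone 0 of 12038. For the IM deletion, 2 pathway genes passed with IM libraries alone, beside 950 of 13566 genes tested. In IM deleted against NCM deleted, DESeq2 gave 22 pathway genes and the compared groups alone 6, beside 14. The compared groups alone gave 228 of 12988 genes tested there. In IM control against NCM control, 1 of the 10 genes passed with no filter, 1 with the compared groups alone and 0 with the non-exonic share, which also gave 0 pathway genes, beside 17. The compared groups alone gave 26 pathway genes there, beside 2015 of 12861 genes tested, and the non-exonic share left 28 of 14254 genes. Over all genes, DESeq2 called 373, 953, 62, 1228 and 1768 genes in the 5 comparisons (IM deletion, NCM deletion, their difference, deleted pair, control pair), beside 41, 60, 0, 652 and 1066 with edgeR.

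The non-exonic share was lower in all IM control libraries than in all others, so as a covariate it is poorly separated from contrasts with IM control. Under it 0 of 14254 genes passed for the IM deletion. With the non-exonic share, signs changed for the IM deletion to 1.73 for Igf1, 3.74 for Pdgfa, 1.27 for Pdgfb, 2.49 for Pdgfc and 1.71 for Vegfb. They changed for the difference of effects to 3.04 for Pdgfa, 0.93 for Pdgfb, 1.25 for Vegfa, 0.98 for Vegfb, 0.54 for Hbegf and -0.094 for Hif1a, and for the control pair to -0.90 for Pdgfa, -0.64 for Pdgfb and -1.07 for Vegfa. With lane, Fn1 changed to 0.28 in NCM and to -0.66 in the difference. Thbs1 in IM deleted against NCM deleted changed to -0.0175 under RLE scaling, -0.0178 with DESeq2, -0.0171 with the compared groups alone and -0.051 with no filter.

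Same-numbered IM and NCM libraries did not deviate together (correlations between -0.0654 and 0.0809 over 5 numbers), and the main fit used no pairing. Each deviation was taken from a mean of 3 libraries of about 250 cells, so these correlations cannot exclude pairing. All 5 shared numbers carried the same genotype in both cell types. With the replicate block 1 of the 10 genes passed in IM deleted against NCM deleted, 0 in the control pair and 0 for the difference of effects (Pdgfc had edgeR adjusted p = 0.0682 in the deleted and 0.452 in the control pair, and Igf1 0.273 in the control pair), and 9 pathway genes passed in the control pair. Under the block Fn1 was -0.47 in the difference of effects and 1.31 in the control pair, and Hif1a was -0.0301 in the control pair.

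With each library left out, the genes of the 10 that passed numbered 0 to 1 for the NCM deletion, where Fn1 replaced Tgfb1 without RM648, 1 to 2 in IM deleted against NCM deleted and 1 to 3 in the control pair, where Fn1 and Thbs1 passed without RM648 and Hbegf without RM659. Pathway genes numbered 0 to 5 for the NCM deletion (0 without IM648, IM659 or RM657, 5 without RM650). Signs changed within -0.38 to 0.059 for Pdgfb and -0.63 to 0.0255 for Pdgfc in the IM deletion, and within -1.57 to 1.70 for Pdgfa, -0.34 to 0.54 for Pdgfb, -3.32 to 0.65 for Pdgfc and -0.41 to 1.29 for Vegfb in the NCM deletion. In the difference of effects they changed within -2.16 to 1.11 for Pdgfa, -0.73 to 0.19 for Pdgfb, -0.88 to 3.10 for Pdgfc, -0.75 to 0.40 for Vegfa, -1.58 to 0.12 for Vegfb, -0.0459 to 0.33 for Hif1a and -0.70 to 0.36 for Cx3cr1. In IM deleted against NCM deleted they changed within -0.0782 to 0.82 for Pdgfb, -0.24 to 0.74 for Vegfa and -0.32 to 0.50 for Thbs1, and in the control pair within -0.0304 to 0.15 for Hif1a.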

Other observations

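The genes whose pattern over the 12 libraries was nearest to that of each growth factor gene are given with the root mean square difference of centred log2 CPM, as a description. Nearest to Tgfb1 were Zfp36l2 (0.17), Ifnar2 (0.195) and Prex1 (0.195), and nearest to Pdgfb were Dcaf8 (0.217), Cyb5b (0.261) and Pim3 (0.269). Nearest to Vegfa were Pkd2 (0.317), Tulp4 (0.355) and Sik3 (0.379). Igf1 was nearest to Slco2b1 (0.706), C3ar1, a receptor of complement C3a (0.802), and Il1rn (0.87), and Pdgfc to Dab2 (0.95), C1qc, a complement gene of macrophages (0.974), and Plxdc2 (0.976). Pdgfa was nearest to Fam3c (0.486), Idh2 (0.608) and Slc25a4 (0.631), and Vegfb to Spint1 (0.611), Spg20 (0.821) and Tanc2 (0.833). Hbegf was nearest to Unc13b (0.753), Cttnbp2nl (0.754) and Ptpn21 (0.765), and Thbs1 to Nr4a2 (0.585), Tra2a (0.613) and Golga5 (0.629). Nearest to Fn1 were Fgfr1 (0.9), Gnpda1 (0.985) and Pabpc4 (1.1).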
